A study of Mus musculus with 4 samples.

Results

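The 77 genes described here carry the symbols of mitochondrial ribosomal proteins, though the protein of Mrps36 is not a ribosome subunit. They were chosen by symbol alone, out of 24346 rows. Taken was every gene of the deposited data whose symbol begins with Mrpl or Mrps and a number. Their transcripts were measured by RNA sequencing in aorta of 3-week-old C57BL/6 mice, with 2 wild-type libraries and 2 libraries of a knockout of Ggps1, the gene of geranylgeranyl diphosphate synthase (GGPPS), which makes the lipid that anchors many small GTPases to membranes. Male and female are both named for every library. The labels leave unsaid how many animals went into each one, in which cells Ggps1 was deleted and which exon was removed. Ggps1 itself was at 8.96 and 10.6 FPKM in wild type, against 1.18 and 1.07 in knockout, in the direction of the labels. FPKM is a fragment density scaled to transcript length and library size, so levels of different genes can be compared per length.

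Mitochondria hold their own ribosome, which translates the few respiratory chain proteins encoded in mitochondrial DNA. Its RNAs are mitochondrial, but every one of its proteins is encoded in the nucleus, made in the cytosol and imported. Some of these proteins have counterparts in the bacterial ribosome and the others are specific to mitochondria. In most tissues the genes are transcribed at moderate levels wherever mitochondria are made, which in aorta includes smooth muscle, endothelium, fibroblasts and any leukocytes.

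All 77 genes reached 1 FPKM in each of the 4 libraries, so none entered the test through 1 genotype only. In knockout, 71 of the 77 were higher and 0 were lower at a limma adjusted p under 0.05, where 35.2% of the 12314 genes tested were higher and 30.6% lower (65.7% in either direction). At an unadjusted limma p under 0.05, 72 were higher and 0 lower. The median log2 fold change of the members, knockout minus wild type on log2(FPKM + 1), was 0.61, with a range of -0.22 to 1.65, beside a median of 0.03 over all genes tested. A list of 11 housekeeping genes also lay above that median, at 0.41, with 6 higher and 1 lower. By the ratio of mean FPKM, 45 of the 77 were at least 1.5-fold higher, where 24.0% of all genes tested were. At 2-fold or more there were 12 of 77 members, a share close to the 13.4% of all genes tested. As first measured, most genes of the set thus lay a moderate step higher, with few large changes. The step was smaller under some of the other scalings given below.

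**Figure D1:**
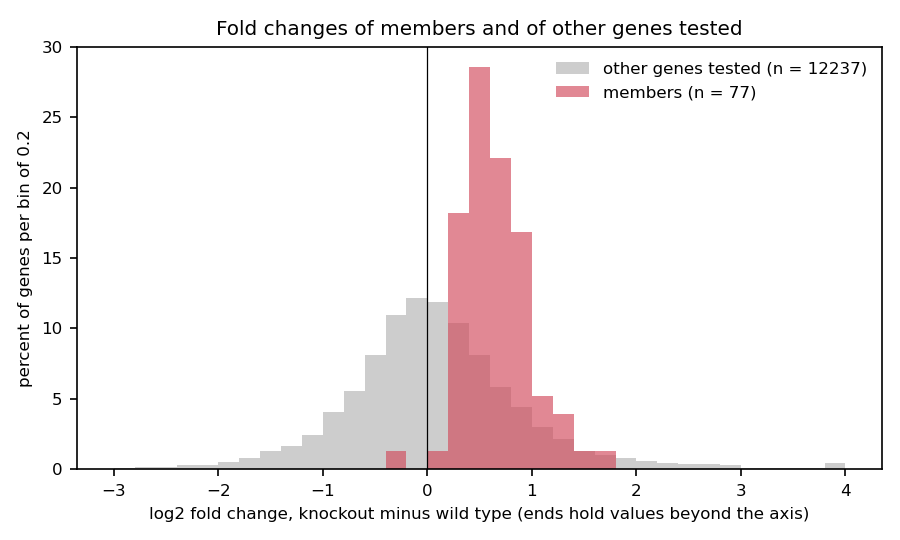
Histogram of log2 fold changes (x axis, knockout minus wild type on log2(FPKM + 1)) as the percent of genes in each bin of 0.2 (y axis), for the 77 members in red and the other genes tested in grey, with values beyond the axis in the end bins. Nearly all members lie to the right of 0, between -0.22 and 1.65, inside the wider spread of the other genes.

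The libraries showed the same picture one by one. The summed FPKM of the 77 genes was 2763 and 2824 in the wild-type libraries and 4607 and 4584 in the knockout libraries. As a share of all FPKM this was 0.536% and 0.543% in wild type and 0.753% and 0.724% in knockout. The knockout values lay above the wild-type values on both measures, and the libraries of a genotype differed little. Across the members, the median log2 difference was 0.03 between the wild-type libraries and 0.01 between the knockout libraries, against 0.57 to 0.69 for the 4 pairs of a wild-type and a knockout library. Both knockout libraries stood above both wild-type libraries for 74 of the 77 genes, where 43.6% of all genes tested did so, and the reverse held for 1 member and for 39.6% of all genes.

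The size of the difference depended on how libraries and transcripts were put on one scale. The FPKM columns summed to 515927 and 520478 in wild type and to 611767 and 632918 in knockout. With column totals made equal, 51 members were higher and 1 was lower (25.3% and 45.3% of all genes, 70.6% in either direction), and the member median was 0.35 beside -0.20 for all genes. Short transcripts as a class were higher in knockout, and many members are short, with a median of 1316 bases for the longest annotated transcript. Among tested genes under 1000 bases, the 24 members had a median log2 fold change of 0.72 and the 664 other genes 0.47. From 1000 to 2000 bases the medians were 0.61 for 29 members and 0.33 for 2480 others, and from 2000 bases on they were 0.53 for 24 members and -0.07 for 9011 others. The members were above the other genes in each class, by the most among long transcripts. The longest annotated transcript need not be the one expressed here, so a gene can stand in too long a class. With linear trends on length and GC content removed, 51 members were higher and 2 lower (35.4% and 29.1% of all genes, 64.5% in either direction), with a median of 0.36 beside 0.05. With both steps together, a setting chosen after seeing the data, 30 were higher and 12 lower (24.3% and 45.6% of all genes, 69.9% in either direction), with a median of 0.10 beside -0.18 for all genes and 0.12 for the housekeeping genes. The distance of the member median from the median of all genes was thus 0.58 as first measured, 0.55 with equal totals, 0.31 with the trends removed and 0.28 with both.

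**Figure D2:**
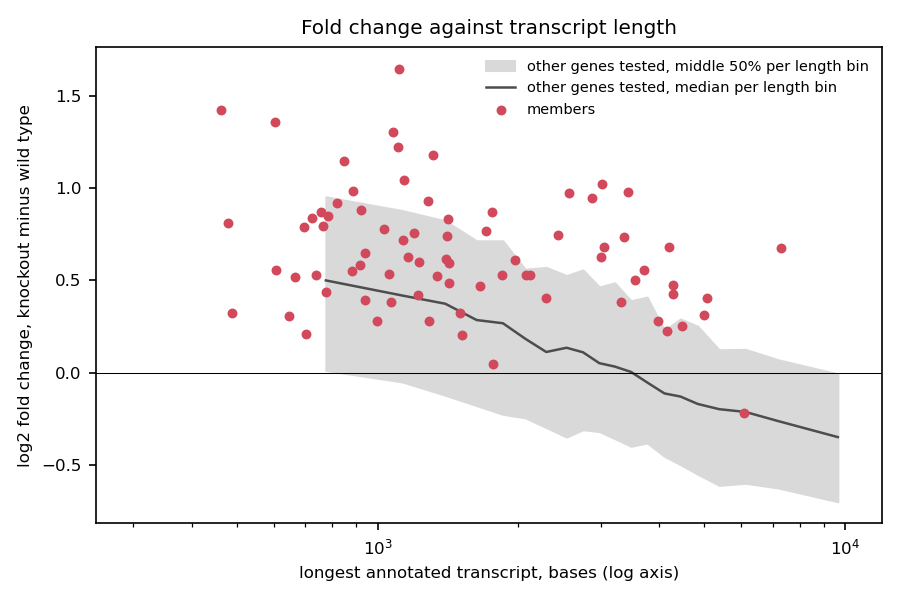
Log2 fold change (y axis, knockout minus wild type) against the length of the longest annotated transcript in bases (x axis, log scale). Red points are the 77 members, the dark line is the median and the grey band the middle 50% of the other genes tested in 20 length bins of equal size. The line falls with length, and most members lie above it at every length.

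Of the 77 members, 25 were called higher as reported and under all 15 alternative settings tried, where 20.1% of all genes tested were called higher in every setting in which they were fitted. They were Mrpl10, Mrpl11, Mrpl12, Mrpl15, Mrpl17, Mrpl21, Mrpl30, Mrpl32, Mrpl35, Mrpl38, Mrpl40, Mrpl45, Mrpl47, Mrpl51, Mrpl52, Mrpl54 and Mrpl57, together with Mrps6, Mrps7, Mrps10, Mrps14, Mrps16, Mrps18a, Mrps18b and Mrps33. The other 46 lost their call in at least 1 setting. Settings with trends removed rest on the longest annotated transcript, such as 7300 bases for Mrpl17 and 2877 for Mrpl57. If a shorter transcript was the one measured, these settings corrected such genes too little.

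**Figure D3:**
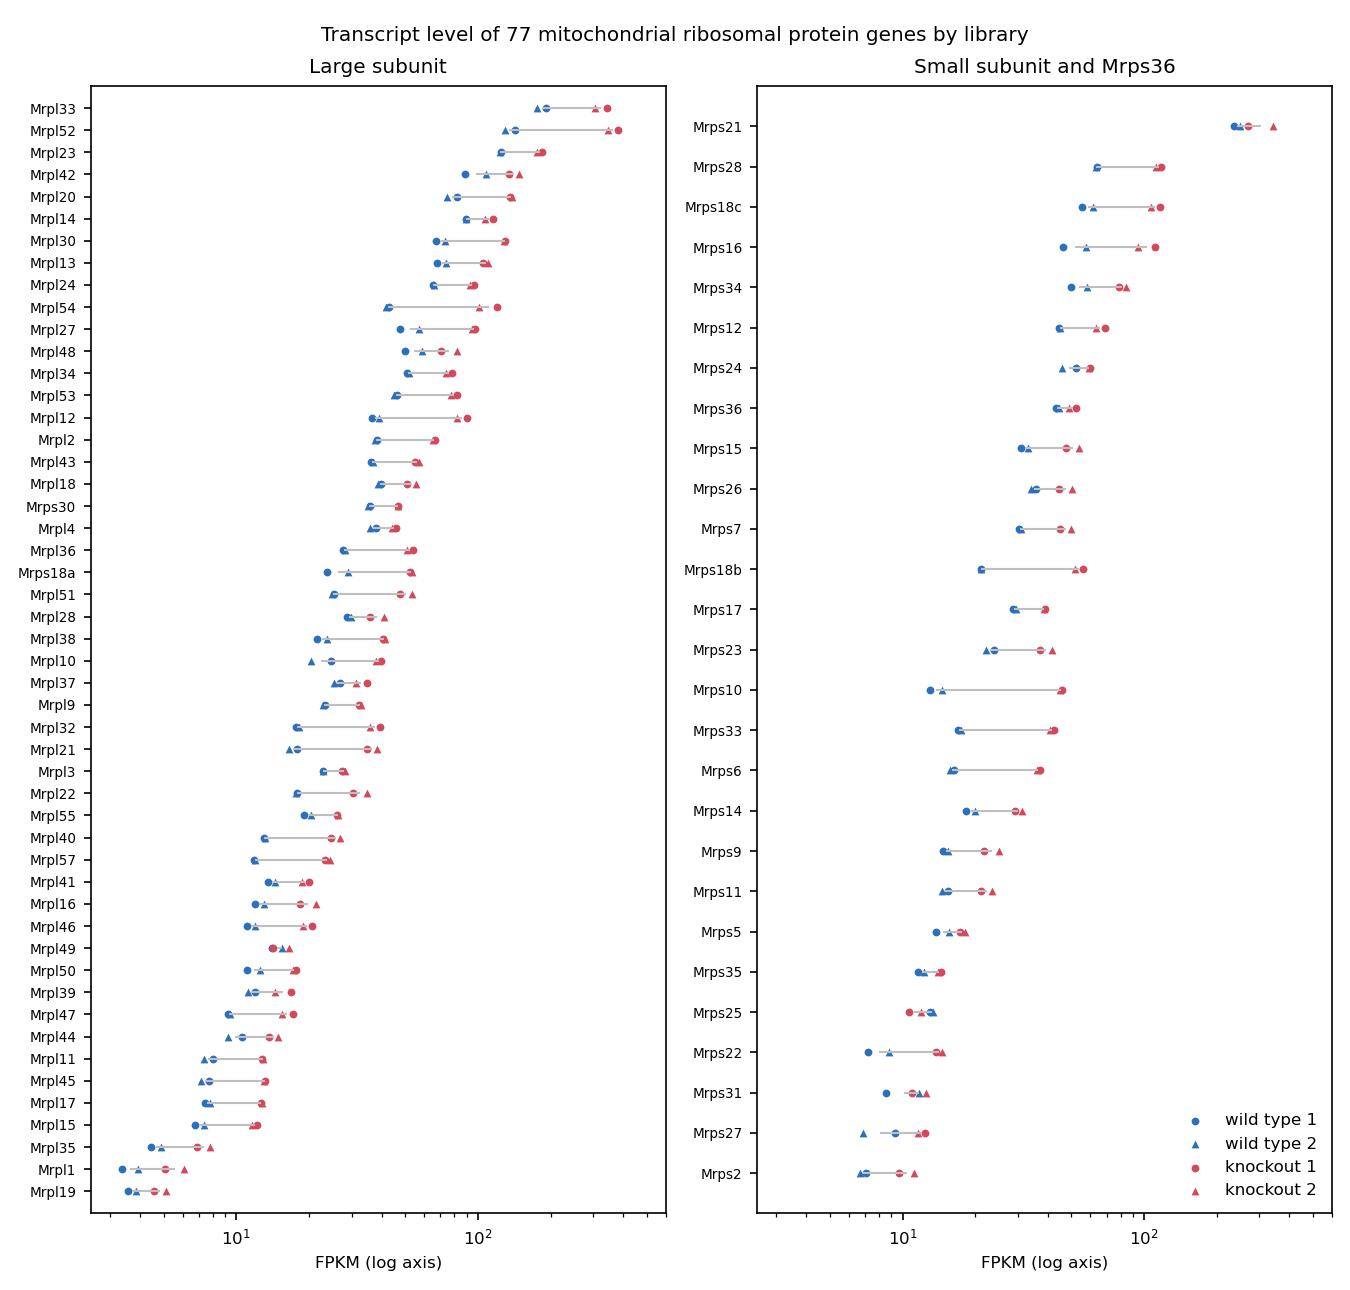
FPKM (x axis, log scale) of each member in each library, with genes ordered by mean level within the large subunit (left) and the small subunit with Mrps36 (right). Blue symbols are wild type, red symbols are knockout, circles are library 1 and triangles library 2, and grey lines join the genotype means. Red lies to the right of blue in nearly all rows; in Mrps25 it lies to the left.

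The promoters of several members carry short motifs of transcription factors known for nuclear genes of mitochondrial proteins. To show such windows, 4 are printed from genes called higher as first measured, chosen among those that lie mostly outside annotated exons. Annotated exons hold 0 bases of the printed Mrpl52 window, 3 of Mrpl22, 18 of Mrps18a and 30 of Mrps12. Each line gives the 200 bases before the RefSeq start site, 5′ to 3′ on the gene's strand, from assembly GRCm38.p6, with motif matches in capitals. Mrpl52 (chr14:54426709-54426908, plus strand) holds the ETS motif CCGGAAG on the other strand and the YY1 motif AAGATGG. Mrpl22 (chr11:58171464-58171663, plus strand) holds the NRF1 motif part GCATGCGC on the other strand and the ETS motif. Mrps18a (chr17:46110804-46111003, plus strand) holds the ETS motif, and Mrps12 (chr7:28741822-28742021, minus strand) the YY1 motif on the other strand.
Mrpl52: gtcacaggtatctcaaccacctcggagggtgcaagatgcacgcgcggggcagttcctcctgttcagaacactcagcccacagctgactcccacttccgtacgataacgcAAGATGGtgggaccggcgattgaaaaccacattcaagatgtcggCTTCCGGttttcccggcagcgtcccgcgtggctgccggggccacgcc
Mrpl22: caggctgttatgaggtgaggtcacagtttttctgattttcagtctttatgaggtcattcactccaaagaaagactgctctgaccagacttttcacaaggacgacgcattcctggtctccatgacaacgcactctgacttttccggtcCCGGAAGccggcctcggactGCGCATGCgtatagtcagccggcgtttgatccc
Mrps18a: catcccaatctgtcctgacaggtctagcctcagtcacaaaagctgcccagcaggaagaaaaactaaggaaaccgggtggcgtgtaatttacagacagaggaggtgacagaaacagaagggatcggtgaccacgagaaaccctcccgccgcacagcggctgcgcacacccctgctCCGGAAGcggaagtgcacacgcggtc
Mrps12: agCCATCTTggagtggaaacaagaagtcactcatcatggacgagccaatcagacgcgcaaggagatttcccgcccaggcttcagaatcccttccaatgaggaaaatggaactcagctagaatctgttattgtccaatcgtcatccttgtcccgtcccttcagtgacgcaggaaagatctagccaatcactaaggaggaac

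Promoter windows, from 250 before the start site to 50 after it, were held for 68 of the 77 members, in 74 windows. The shorter ETS motif CCGGAAG, searched on both strands, was in 33.8% of the member windows, in 17.1% of the 11994 windows of genes tested and in 8.86% of all 32851 windows. Its longer form CCGGAAGT, which overlaps it, was in 16.2%, 7.79% and 3.89%. The NRF1 motif part GCATGCGC, on both strands, was in 10.8%, 5.08% and 2.71%. The YY1 motif AAGATGG, on both strands, was in 17.6%, 7.03% and 6.34%. The TATA box TATAAA, searched on the sense strand, was in 5.41%, 4.24% and 8.32%. These shares describe letters in a window and not binding. Transcripts of Nrf1, Gabpa and Yy1 were not called in either direction as first measured. Nrf1 was at 7.98 and 8.24 FPKM in wild type, against 7.51 and 9.02 in knockout (limma adjusted p = 0.902). Gabpa, an ETS factor, was at 9.79 and 9.70 FPKM in wild type, against 8.39 and 9.32 in knockout (limma adjusted p = 0.365). For Yy1 the log2 fold change was 0.13, with an SE of 0.13 (limma adjusted p = 0.368).

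Genes of the large subunit, which joins amino acids into protein, were higher in 49 of 50 cases with a median log2 fold change of 0.65. This group includes Mrps30 and Mrps18a, whose symbols point to the small subunit but whose proteins sit in the large one. Genes of the small subunit, which reads the messenger RNA, were higher in 22 of 26 cases with a median of 0.59. Summed over genes, the small subunit stood at 0.480 and 0.498 of the large in wild type and at 0.433 and 0.466 in knockout, so the knockout ratios were the lower ones. The difference in this ratio was not tested. Proteins with a bacterial counterpart were higher in 46 of 47 cases (median 0.63) and mitochondrion-specific ones in 25 of 29 (median 0.58).

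**Figure D4:**
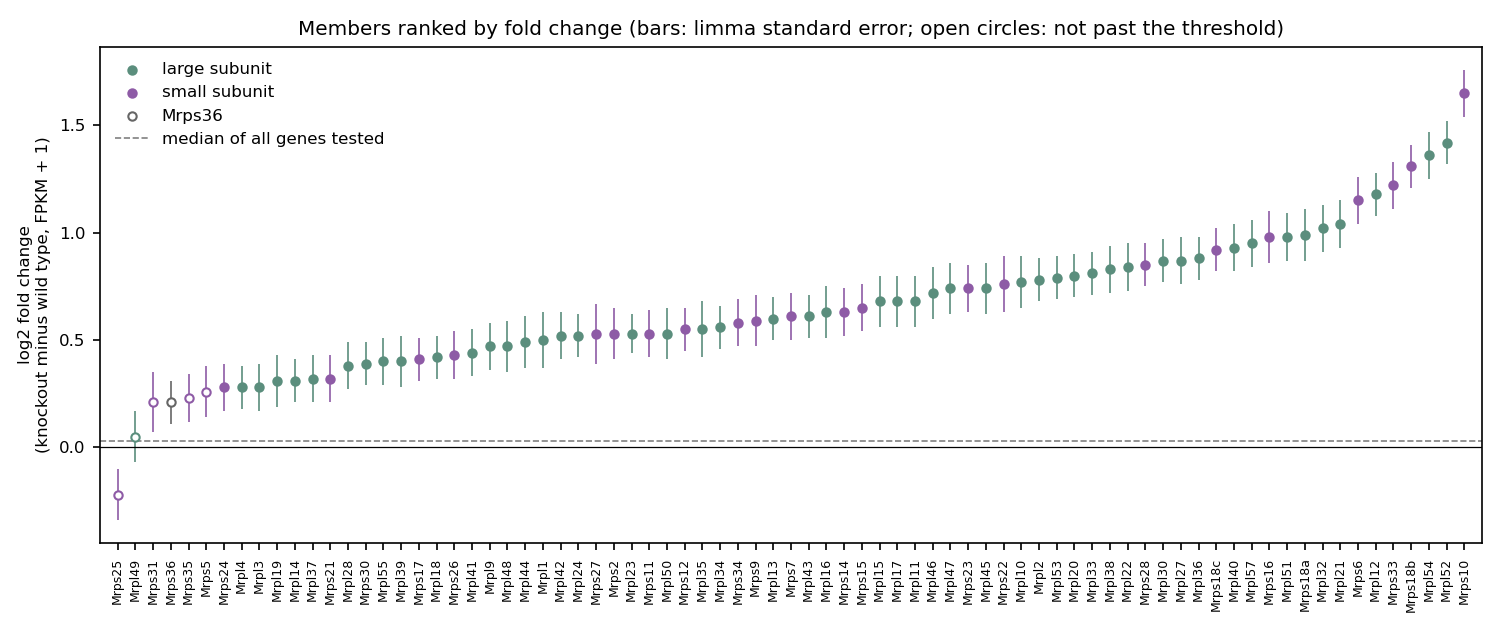
Log2 fold change of each member (y axis, knockout minus wild type on log2(FPKM + 1)) in rank order along the x axis, with the limma standard error as bars. Green is the large subunit, purple the small subunit and grey Mrps36, open circles did not pass the threshold, and the dashed line is the median of all genes tested (0.03). Both subunits are spread along the whole order.

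Among small-subunit genes the largest difference was in Mrps10, the counterpart of a protein in the head of the bacterial small subunit (mm10 chromosome 17, 47368887 to 47381417, plus strand). Mrps10 was at 13.0 and 14.6 FPKM in wild type, against 45.7 and 44.8 in knockout. The groups lay far apart, 3.28-fold by their means (log2 fold change 1.65, SE 0.11, limma adjusted p = 2.07e-08), and the lowest value under any alternative was 1.01.

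Mrps18b, also a small-subunit protein, was at 21.2 FPKM in each wild-type library, against 55.8 and 52.0 in knockout (log2 fold change 1.31, SE 0.10, limma adjusted p = 1.31e-07). Its exons share 638 bases with the antisense gene Gm16279 on the opposite strand. Mrps18b is 1 of 3 genes for relatives of a single bacterial protein. It is counted here as mitochondrion-specific, and the others are counted as having a bacterial counterpart. Of the others, Mrps18c was at 55.2 and 61.7 FPKM in wild type, against 116 and 107 in knockout. Mrps18a, of the large subunit, was at 23.7 and 29.1 FPKM in wild type, against 52.5 and 53.6 in knockout (log2 fold change 0.99, SE 0.12, limma adjusted p = 5.20e-06). In each of the 3, both knockout libraries lay above both wild-type libraries. Mrps18c lost its call in 1 setting (lowest log2 fold change 0.07, limma adjusted p = 0.482), and the other relatives in none.

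Mrps33, a small mitochondrion-specific protein, was at 17.0 and 17.5 FPKM in wild type, against 42.3 and 40.9 in knockout, 2.41-fold higher by the means (limma adjusted p = 2.70e-07). Mrps6, which has a bacterial counterpart, was at 16.3 and 15.7 FPKM in wild type, against 37.1 and 36.0 in knockout, 2.29-fold higher (limma adjusted p = 5.66e-07). In both genes the libraries of a genotype nearly coincided. The Mrps6 locus shares 305 exon bases with Gm49711 and 159 with Slc5a3, both protein-coding and on the same strand. A part of the reads there may therefore be hard to assign. Mrps16, another counterpart of a bacterial protein, was at 46.0 and 57.7 FPKM in wild type, against 111 and 94.8 in knockout, with one of the widest gaps between libraries of a genotype (1.25-fold in wild type).

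Mrps21 was the most abundant member of all, at 235 and 249 FPKM in wild type, against 269 and 341 in knockout. Its rise was small beside its spread (log2 fold change 0.32, SE 0.11, limma adjusted p = 0.0229), and its knockout libraries differed 1.27-fold, more than those of any other member. The call ended when wild-type library 1 was left out (0.28, limma adjusted p = 0.108), when knockout library 2 was left out (0.15, 0.165) and with no filter or equal column totals, and with length and GC trends removed the gene was lower (-0.38, 0.0364). Its longest annotated transcript is among the short ones, and over all 15 alternatives its limma adjusted p ran from 0.00306 to 0.998. The smallest was with equal totals and trends removed, where Mrps21 was called lower (-0.63), and the largest with quantile normalization (-0.00032). Mrps12, the decoding-centre protein whose bacterial counterpart is a target of streptomycin resistance, was at 44.4 and 45.0 FPKM in wild type, against 68.8 and 63.1 in knockout. Its log2 fold change was 0.55 as first measured. It was not called at 0.14 with length and GC trends removed or at -0.11 with equal totals as well.

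Large-subunit genes were led by Mrpl52, a mitochondrion-specific protein (chromosome 14, 54426909 to 54429756, plus strand). Its values were 142 and 129 FPKM in wild type, against 382 and 347 in knockout (log2 fold change 1.42, SE 0.10, limma adjusted p = 3.24e-08). The third most abundant member by its mean over the 4 libraries, it was the highest of all 77 in both knockout libraries, above Mrps21, which led in wild type. Its rise was 0.51 or more under every alternative.

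The genes of the factor-binding stalk, the arm of the large subunit that receives translation factors, and of its base rose in 5 of 5 cases (Mrpl10, Mrpl11, Mrpl12, Mrpl53 and Mrpl54), with a median log2 fold change of 0.79, and of 0.43 with equal totals and length and GC trends removed. Mrpl54 (chromosome 10, 81264713 to 81266934, minus strand) was at 43.0 and 41.7 FPKM in wild type, against 120 and 101 in knockout, 2.61-fold higher by the means (limma adjusted p = 1.35e-07). Mrpl12, the stalk protein that also binds the mitochondrial RNA polymerase, was at 36.3 and 39.0 FPKM in wild type, against 90.4 and 82.3 in knockout, 2.30-fold higher (limma adjusted p = 3.34e-07). Mrpl10, which anchors the copies of Mrpl12, was at 24.7 and 20.3 FPKM in wild type, against 39.7 and 38.0 in knockout. Of these 5 genes, 4 were called under every setting, a count too small to set against the 20.1% of all genes. Mrpl53, the exception, shares 695 exon bases with the protein-coding gene Gm42688 on the same strand, as many as its longest annotated transcript holds.

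Near the exit tunnel, through which the new protein leaves toward the inner membrane, 7 of 7 genes were higher, with a median of 0.68. Mrpl45, which ties the ribosome to the membrane, was at 7.71 and 7.11 FPKM in wild type, against 13.2 and 13.0 in knockout (log2 fold change 0.74, SE 0.12, limma adjusted p = 7.79e-05). Mrpl23 was at 125 and 123 FPKM in wild type, against 185 and 175 in knockout (log2 fold change 0.53, SE 0.09, limma adjusted p = 2.27e-04), but at -0.02 with length and GC trends removed and -0.27 with equal totals as well. Mrpl23 has an annotated processed pseudogene, so its level is less certain. The tunnel group's median fell from 0.68 to 0.26 with the trends removed and to 0.01 with both steps, a larger loss than in the stalk group.

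In the central protuberance, the knob of the large subunit that contacts the small one, 7 of 7 genes were higher (median 0.72), and with equal totals and trends removed 3 were higher and 1 lower (median 0.12). Mrpl40 and Mrpl38 were the members of this group called in every setting. Mrpl40 went from 13.0 and 13.1 FPKM in wild type to 24.7 and 26.9 FPKM in knockout, and Mrpl38 from 21.5 and 23.7 to 40.5 and 41.4 FPKM. Close to the peptidyl transferase centre, where peptide bonds form, 4 of 4 genes were higher, with a median of 0.46. This group (Mrpl2, Mrpl3, Mrpl4 and Mrpl16) held no gene called in every setting, and its median was 0.04 with equal totals and the trends removed. Counts in these groups are too small to set against the 20.1% of all genes called higher in every setting.

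Other large-subunit genes among the larger rises were Mrpl21 and Mrpl32. Mrpl21 was at 17.8 and 16.6 FPKM in wild type, against 34.8 and 38.4 in knockout (log2 fold change 1.04, SE 0.11, limma adjusted p = 1.93e-06). Mrpl32, which a protease of the inner membrane must trim before the ribosome can be assembled, was at 17.6 and 18.2 FPKM in wild type, against 39.2 and 35.6 in knockout, and its rise was 0.67 or more under every alternative. Its longest annotated transcript has 3013 bases.

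Mrpl33, the second most abundant member, was at 192 and 176 FPKM in wild type, against 343 and 305 in knockout (log2 fold change 0.81, SE 0.10, limma adjusted p = 7.77e-06), and at 0.03 (limma adjusted p = 0.79) with length and GC trends removed. Mrpl42 was at 88.7 and 108 FPKM in wild type, against 135 and 148 in knockout (log2 fold change 0.52, SE 0.11, limma adjusted p = 0.00107), and at -0.13 with the trends removed. Mrps30 was at 35.8 and 35.2 FPKM in wild type, against 46.6 and 46.7 in knockout (log2 fold change 0.39, SE 0.10, limma adjusted p = 0.00428). The Mrps30 call ended when wild-type library 2 was left out (0.37, limma adjusted p = 0.0656), with equal column totals (0.13, 0.24) and with equal totals and trends removed (0.10, 0.332). With equal totals as well, Mrpl33 was at -0.22 and Mrpl42 at -0.38, so the direction of both depended on these settings. Mrpl14, Mrpl34, Mrpl41, Mrpl55 and Mrps24, each called higher at a log2 fold change of 0.28 to 0.56, were called lower with equal totals and the trends removed, at -0.45 to -0.23.

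The 6 members that did not pass, singled out after their values were seen, were Mrps5, Mrps25, Mrps31, Mrps35, Mrps36 and Mrpl49, and 4 of them are small-subunit genes. Mrps25, a mitochondrion-specific protein, was the sole member below 0, at 13.0 and 13.4 FPKM in wild type, against 10.6 and 11.9 in knockout (log2 fold change -0.22, SE 0.12, limma adjusted p = 0.119). Its exons share 4590 bases with Nr2c2 on the opposite strand, and no source read here says if strand entered the counting. Mrps25 was called lower with equal column totals (-0.46, limma adjusted p = 0.0019), median ratio scaling (-0.25, 0.0359) and quantile normalization (-0.25, 0.0356). It was also called lower with equal totals and trends removed (-0.24, limma adjusted p = 0.0251). When knockout library 2 was left out it was at -0.29, where the lone knockout library is assumed to vary like the wild type. With length and GC trends removed it was at 0.01.

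Mrpl49 was at 14.1 and 15.4 FPKM in wild type, against 14.2 and 16.6 in knockout (log2 fold change 0.05, SE 0.12, limma adjusted p = 0.733), with overlapping groups. Mrps31 overlapped too, at 8.53 and 11.7 FPKM in wild type, against 10.9 and 12.5 in knockout, and had the widest gap between wild-type libraries of all members (1.37-fold). Mrps5 and Mrps35 were 1.21-fold and 1.19-fold higher by their means (limma adjusted p = 0.066 and 0.0929), with both knockout libraries on top. With length and GC trends removed both were called higher (Mrps5 0.38, limma adjusted p = 0.00615, and Mrps35 0.34, 0.00996). Neither was called with equal column totals (0.01 and -0.02) or with equal totals and trends removed (0.13 and 0.09). In that last setting Mrpl49 (-0.42, limma adjusted p = 0.00445) and Mrps31 (-0.38, 0.0235) were called lower.

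Mrps36 is a member by symbol only, as its protein is known to work in the 2-oxoglutarate dehydrogenase complex of the citric acid cycle. It was at 43.0 and 44.4 FPKM in wild type, against 52.4 and 48.9 in knockout (log2 fold change 0.21, SE 0.10, limma adjusted p = 0.0874). When knockout library 2 was left out it was called higher (0.26, limma adjusted p = 0.0374), again with a lone knockout library assumed to vary like the wild type. With length and GC trends removed it was called lower (-0.41, 0.00278). Mrps36 has 3 annotated processed pseudogenes.

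Proteins of the same ribosome whose genes carry other symbols were split. Of 6 such genes, 3 were higher and 0 lower, with a median of 0.40, but 1 was higher and 2 lower with equal totals and trends removed. Aurkaip1 went from 35.5 and 36.6 FPKM in wild type to 75.8 and 66.8 FPKM in knockout, and Chchd1 from 65.9 and 69.8 to 119 and 127 FPKM. Ict1, a release factor built into the large subunit, went from 37.4 and 41.7 to 54.5 and 61.1 FPKM. Dap3, the GTP-binding protein of the small subunit, was at 9.68 and 9.26 FPKM in wild type, against 11.3 and 11.7 in knockout (limma adjusted p = 0.066), and Ptcd3 and Gadd45gip1 overlapped between the genotypes.

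Genes that build and serve this ribosome had lower medians, and the balance of their calls turned with the scaling. Assembly factors were higher in 13 and lower in 3 of 25 cases (median 0.31), but higher in 7 and lower in 10 with equal totals and trends removed (median -0.12), with the tRNA-processing protein Trmt10c at 5.44 and 5.80 FPKM in wild type, against 10.6 and 12.6 in knockout. The rRNA methyltransferases Rnmtl1 and Tfb1m were 1.86-fold and 1.99-fold higher. Mitochondrial translation factors were higher in 7 and lower in 1 of 16 cases (median 0.22), but higher in 3 and lower in 6 with both steps (median -0.12). Of these, the elongation factor Tsfm went from 9.02 and 8.78 FPKM to 21.8 and 20.7 FPKM, its partner Tufm from 22.7 and 22.6 to 33.5 and 37.9 FPKM, and Slirp, which protects mitochondrial messenger RNA, from 86.0 and 90.3 to 206 and 195 FPKM. The synthetases that charge mitochondrial tRNAs were higher in 6 and lower in 2 of 17 cases (median 0.03, range -0.52 to 0.86), or 35.3% higher, near the 35.2% of all genes. Their summed FPKM was 604 and 484 in wild type, against 506 and 364 in knockout. Among those that rose, Fars2, Yars2 and Tars2 were 1.79-fold, 1.97-fold and 1.57-fold higher.

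Genes for copying and transcribing mitochondrial DNA were higher in 5 and lower in 2 of 10 cases (median 0.33, and 0.02 with both steps), among them Ssbp1, the single-strand binding protein, from 18.0 and 18.2 to 28.6 and 28.8 FPKM. Citric acid cycle enzymes were higher in 7 and lower in 2 of 17 (median 0.18), with Sdhb and Mdh2 1.65-fold and 1.58-fold higher, but 4 were higher and 7 lower with equal totals, and 1 higher and 9 lower with both steps (median -0.24). Import and protein-quality genes were the mitochondrial list with the highest median, 0.94, and were higher in 14 and lower in 0 of 16 cases. The chaperone Hspa9 went from 34.7 and 36.0 FPKM to 151 and 175 FPKM, the import channel Timm23 from 35.0 and 33.6 to 105 and 113 FPKM, and Hspe1 from 149 and 129 to 381 and 379 FPKM. With equal totals and the length and GC trends removed, this median was 0.60, beside 0.10 for the members.

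Of 9 regulators of mitochondrial gene expression, 7 were tested. With equal column totals 1 was called higher and 1 lower, and with length and GC trends removed 3 higher and 0 lower. With both steps 2 were called higher and 1 lower. As first measured, 1 was called. That gene was Myc, a transcription factor known to raise ribosome production, at 1.29 and 1.89 FPKM in wild type, against 24.3 and 26.9 in knockout (log2 fold change 3.37, SE 0.14, limma adjusted p = 2.07e-10). Pprc1 was at 7.74 and 7.27 FPKM in wild type, against 8.88 and 9.55 in knockout (limma adjusted p = 0.0663).

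Set beside cytosolic ribosomal proteins, which share the members' job in another compartment, the members had a lower median and a similar one after correction. Of the cytosolic genes, chosen by symbol, 78 of 78 tested were higher, with a median of 0.74, beside 0.61 for the members. With length and GC trends removed 48 cytosolic genes were higher and 0 lower (median 0.37, beside 0.36 for the members). With equal totals as well, 24 were higher and 13 lower (median 0.11, beside 0.10 for the members). Nuclear genes for respiratory chain subunits, which work with the proteins this ribosome makes, were higher in 51 and lower in 5 of 72 cases, with a median of 0.38. This turned to 10 higher and 20 lower with the trends removed (median -0.11), and to 3 higher and 51 lower with equal totals as well (median -0.37). The differences between these sets were not tested.

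**Figure D5:**
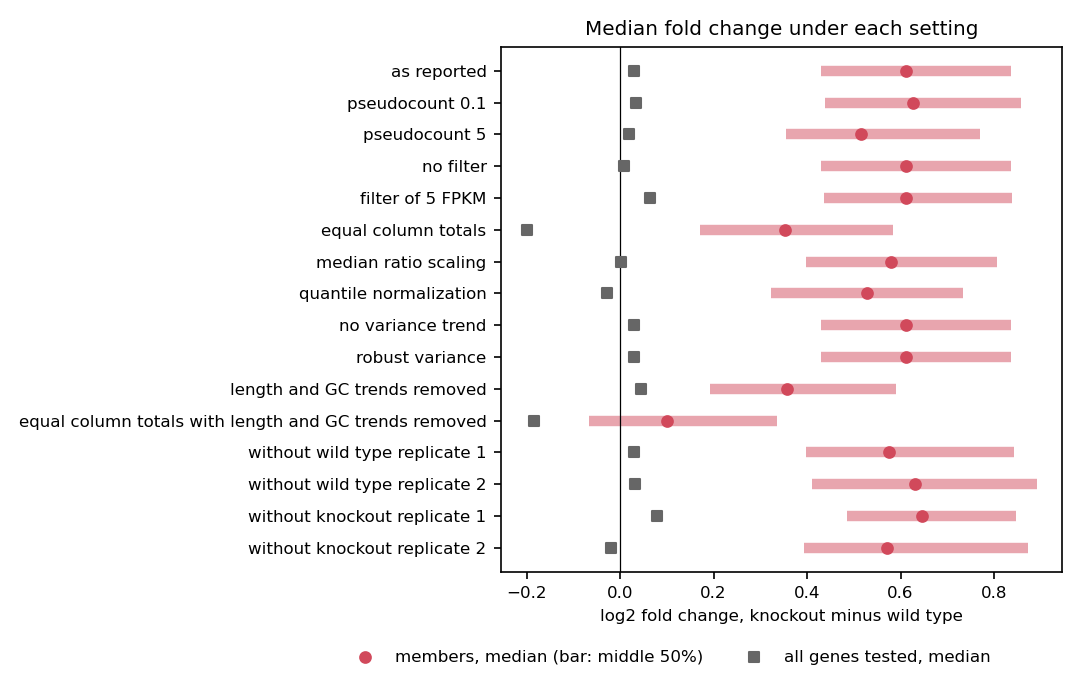
Median log2 fold change (x axis, knockout minus wild type) under the setting reported and each of the 15 alternatives (rows), for the 77 members (red circles, with bars over the middle 50% of members; 76 under the filter of 5 FPKM) and for all genes tested (grey squares). The red circles lie to the right of the grey squares in every row, at 0.10 with equal totals and trends removed and between 0.35 and 0.65 elsewhere.

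Aorta is a mixture of cells, and a lower share of cells of a type cannot be told apart from less RNA per cell in such samples. Contractile smooth muscle markers were expressed in every library, as the tissue label says, and 8 of 8 were lower in knockout, with summed FPKM of 15669 and 17562 in wild type and 4013 and 5289 in knockout. Macrophage markers were higher in 9 of 10 cases (summed FPKM 95.3 and 99.7 in wild type, 560 and 479 in knockout) and general leukocyte markers in 8 of 8 (15.5 and 16.5 in wild type, 229 and 179 in knockout). Markers of dividing cells were higher in 8 of 8 cases (70.4 and 66.7 in wild type, 223 and 230 in knockout). Endothelial markers were lower in 6 of 6 tested (227 and 232 in wild type, 64.3 and 77.8 in knockout). Of 7 fibroblast markers 5 were lower and 2 higher (1876 and 1635 in wild type, 2208 and 1957 in knockout). Col1a1 made most of that sum, at 1329 and 1046 FPKM in wild type, against 1850 and 1575 in knockout. The median log2 fold change of the fibroblast list was -0.69. The part of these cell types in the rise of the members was not tested. Brown fat is a tissue rich in mitochondria that lies around the aorta. Its marker Ucp1 was at 0.299 and 0.385 FPKM in wild type, against 0.176 and 0.134 in knockout. Another of its markers, Cidea, was at 7.82 and 13.2 FPKM in wild type, against 0.711 and 0.585 in knockout. Of 7 brown fat markers 3 were tested, and these 3 were lower in knockout.

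Members with and without exons shared with another gene gave near values as first measured, and the difference was not tested. Of the 45 members with no such overlap, 41 were higher, with a median log2 fold change of 0.63, and of the 32 with one, 30 were higher, with a median of 0.59. Called higher in every setting were 17 of the 45 and 8 of the 32, where 20.1% of all genes tested were. Mrpl46 and Mrps11, members that lie on opposite strands of chromosome 7 with 173 shared exon bases, were both higher, Mrpl46 from 11.1 and 12.0 FPKM to 20.5 and 18.8 FPKM and Mrps11 from 15.5 and 14.6 to 21.1 and 23.4 FPKM. The 77 genes lie on 17 chromosomes, with at most 10 on one.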

How the data were processed

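Values are FPKM as deposited by the authors, with a file for each library; the unit is named, misspelt, per the file headers. Build mm10 and the tools DESeq2 1.16.1, HISAT2 2.0.5 and featureCounts 1.5.0-p3 stand in the submitters' processing notes without roles, so the program behind FPKM and the use of strand are not known here. No step of whole fragments was found in low values (the most frequent ratio covered at most 0.464% of low genes), so depth is unknown and no counting interval is given. Genes that reached 1 FPKM in 2 or more libraries were tested with limma 3.58.1 (R 4.3.3, variance trend) on log2(FPKM + 1), knockout against wild type, with Benjamini-Hochberg adjustment over 12314 genes and a threshold of 0.05; this understates changes of low genes. The script was tested on simulated data in which few genes changed. No length trend or difference in column totals was put in, so that test does not cover them. With the moderated variance, limma used 13.4 degrees of freedom per gene. Nothing says that libraries came from separate animals, so p-values reflect only how these libraries vary, which may be technical. The smallest two-sided p of an exact permutation test with 2 per genotype is 0.333, so none was used.

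The members and lists were chosen with earlier results of these data known, so lists are described by counts and medians only. Named genes were the 8 largest called changes per direction, the 5 most abundant members, Mrps18a, Mrps30, Mrps36, those that changed direction between settings and up to 3 genes per other list; other members were named after their values were seen, to complete a role or the list of calls kept in every setting. Length, GC, positions and overlaps come from GENCODE M21 (mm10), promoters from RefSeq (GRCm38.p6).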

Additional observations from a re-analysis of the deposited data

How the results depend on the processing

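Of 15 alternatives, 14 were planned and 1, equal column totals with length and GC trends removed, was added after seeing the data. In the 14 planned ones the count of members called higher stayed within 1.5 times of 71, at 51 to 71, and in the added one it was 30. Leaving out 1 library gave 58 to 69 higher and 0 to 1 lower, with a median log2 fold change of 0.57 to 0.65. The count lower, 0 as reported, was 1 with equal column totals, median ratio scaling or quantile normalization, 2 with length and GC trends removed and 12 with both. The median was 0.63 and 0.52 with pseudocounts of 0.1 and 5, 0.35 with equal totals, 0.58 with median ratio scaling, 0.53 with quantile normalization, 0.36 with trends removed and 0.10 with both. It moved by more than the replicate SD of 0.01 in each of these. Trends on length and on GC were removed together, so their shares cannot be told apart. Where a genotype is left with 1 library, that library is assumed to vary like the other genotype. What makes totals and short transcripts differ between genotypes was not tested.

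For the 25 members followed one by one, 311 of 375 values kept direction and side of the threshold and 30 turned direction. With equal totals Mrpl49 was at -0.20, Mrps31 at -0.04, Mrps35 at -0.02 and Mrps36 at -0.05. With quantile normalization Mrps21 was at -0.00032. With length and GC trends removed Mrpl14 was at -0.20, Mrpl23 at -0.02, Mrpl41 at -0.08, Mrpl42 at -0.13, Mrpl49 at -0.17, Mrpl55 at -0.04, Mrps21 at -0.38, Mrps24 at -0.10, Mrps25 at 0.01, Mrps31 at -0.14 and Mrps36 at -0.41. With both steps Mrpl14 was at -0.45, Mrpl23 at -0.27, Mrpl33 at -0.22, Mrpl34 at -0.23, Mrpl41 at -0.32, Mrpl42 at -0.38, Mrpl49 at -0.42, Mrpl55 at -0.28, Mrps21 at -0.63, Mrps24 at -0.36, Mrps31 at -0.38 and Mrps36 at -0.66. Leaving out 1 library moved Mrpl49 between -0.06 (without knockout library 2) and 0.16 (without knockout library 1), with -0.01 without wild-type library 1. The cause was not tested beyond the settings' own construction. Among the smaller rises, calls ended without wild-type library 1 for Mrpl14 (0.30, limma adjusted p = 0.111), Mrpl41 (0.39, 0.0746), Mrpl55 (0.35, 0.103) and Mrps24 (0.37, 0.0603), and without wild-type library 2 for Mrpl14 (0.31, 0.103) and Mrps24 (0.18, 0.38). The Mrps24 call also ended without knockout library 1 (0.27, 0.0735) or 2 (0.29, 0.059). No paired analysis was possible because the labels number the libraries in one run and give the genotypes no shared number. Depth is unknown, so precision rests on 2 libraries per genotype.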
